A study of Mus musculus with 2 samples.

Results

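The genes described here are 9 that naive T cells use to reach lymph nodes and to stay at rest: Ccr7, S1pr1, Il7r, Klf2, Lef1, Tcf7, Satb1, Bach2 and Igfbp4. They were taken by name from the 32285 genes of the deposited matrices, and all 9 were present. The cells came from tumours of 4T1, a mouse mammary carcinoma line, grown in the fat pad of BALB/c mice injected at 6 to 8 weeks of age and taken 14 days later, when tumours of both groups were of similar size. The injected tumour cells expressed either shPml, a hairpin RNA directed at Pml, or the control hairpin shCTRL. CD45-positive leukocytes were sorted from each group, and 1 droplet (10x Chromium) library was made from each. How many mice were pooled, whether the hairpin line was 1 clone, and the sex of the mice are not given in the sources used here. Each group is thus 1 library, so nothing below was checked against replicates and p-values are left out.

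A naive T cell circulates through blood and lymph nodes, entering nodes through the chemokine receptor CCR7 and leaving them through the lipid receptor S1PR1. KLF2 is the transcription factor that switches on S1pr1 and holds the cell at rest, while LEF1 and TCF7 (TCF-1) bind beside beta-catenin and keep the naive and stem-like state. Signals through the antigen receptor turn most of these genes down as T cells become effectors, and T cells inside tumours are often in that second state.

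A promoter stretch is shown for 2 of the genes: Klf2, which gave the most UMIs (unique molecular identifiers, 1 per counted transcript) of the 9 over the classes described below, and Igfbp4, which had the largest difference between the libraries over all CD8 T cells. Both are from RefSeq promoter windows of the GRCm38.p6 build, 5′ to 3′ on the plus strand, from 250 to 31 bases before the annotated start. Capitals mark a match to the MEF2 consensus in Klf2 and a KLF box (CACCC, here on the reverse strand) in Igfbp4.
Klf2, chr8:72318812-72319031: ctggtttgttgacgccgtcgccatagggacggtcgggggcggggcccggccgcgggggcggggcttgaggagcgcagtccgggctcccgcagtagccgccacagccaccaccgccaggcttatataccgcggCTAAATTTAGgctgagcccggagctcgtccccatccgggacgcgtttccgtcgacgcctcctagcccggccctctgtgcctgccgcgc
Igfbp4, chr11:99040994-99041213: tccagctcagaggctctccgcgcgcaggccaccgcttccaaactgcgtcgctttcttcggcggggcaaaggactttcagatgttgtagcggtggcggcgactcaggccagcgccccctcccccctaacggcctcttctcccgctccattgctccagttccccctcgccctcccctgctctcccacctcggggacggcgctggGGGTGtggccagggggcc

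The MEF2 match of Klf2 begins 118 bases before the annotated start, and 2.60% of 32851 RefSeq windows of that length hold such a match on either strand. The KLF box of Igfbp4 begins 48 bases before its start, and 47.8% of windows hold such a box. The TCF/LEF core CTTTGA, in 12.6% of windows, and the FOXO core GTAAACA, in 2.81%, are in neither stretch. None of these motifs overlaps another in the 2 stretches. RefSeq windows were found for 7 of the 9 genes. Igfbp4 (chromosome 11, 99041244 to 99054392, plus strand, GRCm38) and Ccr7 (chromosome 11, 99144196 to 99155077, minus strand) are neighbours, 89803 bases apart with Tns4 as the 1 protein-coding gene between them. Klf2 lies on chromosome 8 at 72319033 to 72321656.

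Cells were assigned by UMIs of a few marker genes, among barcodes with at most 10% mitochondrial UMIs. CD4 T cells needed a UMI of Cd3d, Cd3e or Cd3g and of Cd4, and 0 of Cd8a, Cd8b1 and Foxp3. CD8 T cells needed a UMI of Cd8a or Cd8b1 and 0 of Cd4. Regulatory T cells had a UMI of Foxp3, B cells at least 2 of Cd79a and Cd79b together, and neutrophils at least 1% of their UMIs from S100a8 and S100a9. This gave 35 CD4 T, 831 CD8 T, 22 regulatory T, 58 B cells and 182 neutrophils for shPml, and 215, 266, 40, 73 and 24 for shCTRL. A level is the summed UMIs of a gene per 1000000 UMIs of the class in that library (CPM). Its interval, in brackets, is an exact 95% Poisson interval that covers counting error only.

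The limit on mitochondrial UMIs kept 1754 of 2268 shPml barcodes and 856 of 2244 shCTRL barcodes, with medians of 1300 and 4040 UMIs. All 8 genes of a T cell list had UMIs in each T cell class of both libraries, with 4797 to 7533 CPM in sum. All 8 B cell and all 8 neutrophil genes had UMIs in their class. These lists include genes used in the gates, so part of this was set by the gates. Having a UMI was not particular to a class: all 8 T cell genes also had UMIs in shPml neutrophils, with 63.4 CPM in sum. The shCTRL B cell gate also held T cell transcripts, with 653 CPM of the T cell list against 60.5 CPM in the shPml gate, and 51 of its 73 cells had no Cd3 UMI, against 56 of 58. Neutrophil transcripts went the other way: a list of 8 summed to 2905 CPM in the shPml and 39.1 CPM in the shCTRL B cell gate, and to 1273 and 265 CPM in the CD8 T gate. In the CD8 T gate, 121 of 831 shPml and 27 of 266 shCTRL cells had no Cd3 UMI. The 2 libraries shared 266 barcodes, and in the CD8 T gate 178 shPml cells (21.4%) and 128 shCTRL cells (48.1%) had one. The CD8 T cells also differed in sex-chromosome transcripts: Xist, made in female cells, had UMIs in 29 of 831 shPml and 134 of 266 shCTRL cells, and Y-linked genes in 177 and 15. In the other classes Y-linked UMIs were in 1 regulatory T cell of each library and in 0 CD4 T cells, B cells and neutrophils. The sources used here do not give the reason for this difference between classes.

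Apart from Klf2, the 9 genes gave few UMIs in neutrophils, and most were lower in the CD8 T cells of the shPml library. The plot of levels by class gives every value.

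**Figure D1:**
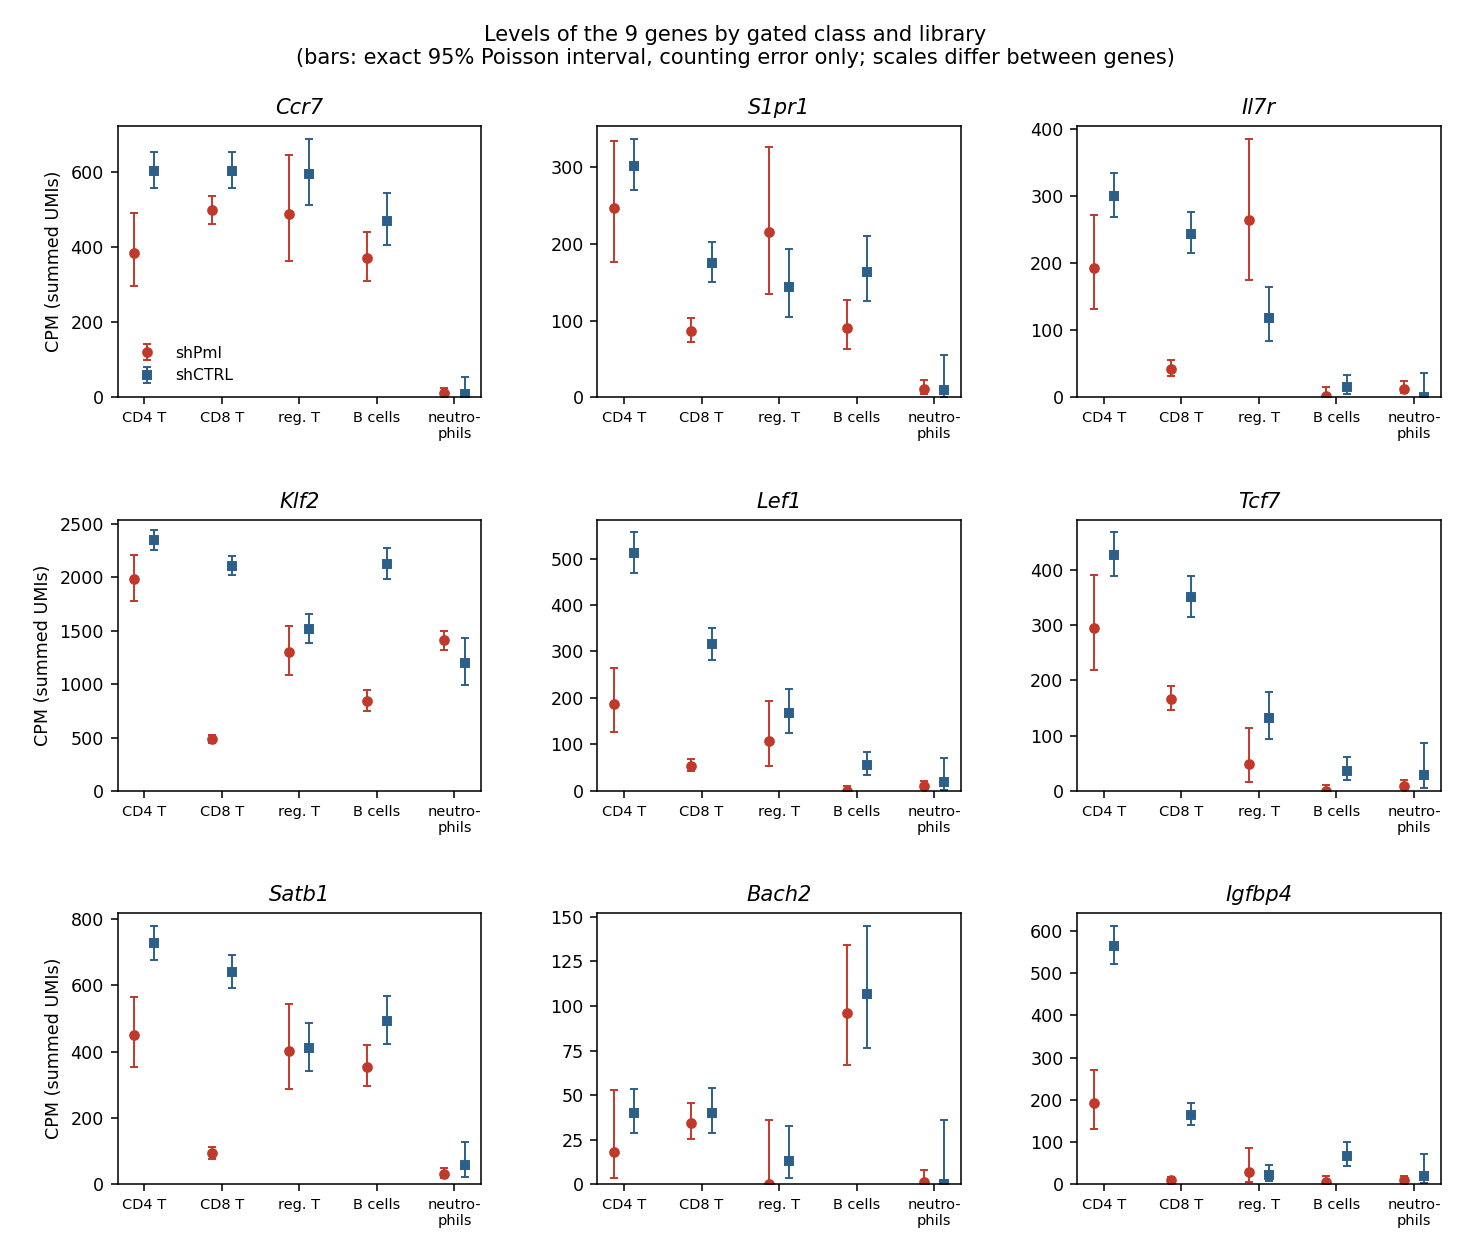
CPM (y axis, starting at 0, with a scale of its own for each gene) of the 9 genes in 5 gated classes, shPml as red circles and shCTRL as blue squares; bars are exact 95% Poisson intervals. Ccr7 is near 500 to 600 CPM in CD8 T cells of both libraries (499 and 604), whereas Klf2 is at 482 against 2106.

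Ccr7, the receptor for CCL19 and CCL21, had similar levels over the lymphocyte classes. In the shPml library it stood at 385 CPM (296 to 491) in CD4 T, 499 (461 to 538) in CD8 T, 489.5 (363 to 645) in regulatory T and 371 (311 to 440) in B cells. In the shCTRL library the same classes had 604 (559 to 653), 604 (558 to 654), 597 (514 to 689) and 471 (405 to 545) CPM. Neutrophils had 9 UMIs and 1 UMI. Among shPml cells no neighbouring pair of the 4 lymphocyte classes was separated by its interval, and among shCTRL cells B cells alone were separated from the class above them, regulatory T cells. The ratio of shPml over shCTRL was 0.825 in CD8 T cells (log2 -0.28, -0.44 to -0.12). In CD4 T cells it was log2 -0.65 (-1.05 to -0.28), but 1 shPml cell gave 32 of the 64 UMIs. The CD4 T value was -1.17 with each library's top cell left out, and -1.71 without shared barcodes. The regulatory T value was -0.29 (-0.77 to 0.17), with 22 of the 50 shPml UMIs in 1 cell, and -0.91 without the top cells.

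S1pr1, the receptor for sphingosine-1-phosphate that lets T cells leave lymph nodes, was highest in CD4 T cells. They were separated from the next class in the shCTRL library, but not from regulatory T cells in the shPml library. In CD4 T cells it stood at 246 CPM (177 to 334) in the shPml and 302 (270.3 to 337) in the shCTRL library. The interval of that difference held 0 (log2 -0.29, -0.80 to 0.18). In CD8 T cells it was at 86.7 CPM (71.7 to 104) against 175 (150.0 to 202), a log2 ratio of -1.01 (-1.36 to -0.66). That value lies at the edge of the 2-fold mark: as a mean over cells of each cell's CPM it was -0.31. Regulatory T cells had 215 and 144 CPM, with an interval that held 0 (log2 0.58, -0.23 to 1.34), and the sign turned to -0.51 without shared barcodes and -0.70 as a mean over cells. B cells had 90.8 and 164 CPM.

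Il7r, the receptor chain for the survival cytokine interleukin 7, went different ways in the T cell classes. In CD8 T cells it stood at 42.6 CPM (32.3 to 55.2) in the shPml and 243 (214 to 275) in the shCTRL library, 5.71-fold lower (log2 -2.51, -2.96 to -2.09). In CD4 T cells the levels were 192 CPM (132 to 272) and 299 (268 to 334), a log2 ratio of -0.64 (-1.21 to -0.11), but 1.12 at a mitochondrial limit of 5%, which left 13 shPml cells. In regulatory T cells the shPml library was higher, with 264 CPM (174 to 385) against 119 (83.6 to 164) and a log2 ratio of 1.16 (0.38 to 1.91), from 27 and 37 UMIs. Regulatory T cells thus had the highest Il7r level of the 5 classes in the shPml library, not separated from CD4 T cells, and the third highest in the shCTRL library. B cells had 1 and 6 UMIs, and neutrophils 9 and 0.

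Klf2, the quiescence factor upstream of S1pr1, was the one gene of the 9 with a high level in neutrophils. They had 1410.3 CPM (1323 to 1502) in the shPml and 1198 (995 to 1431) in the shCTRL library, where 1 cell gave 53 of the 122 UMIs. CD4 T cells had 1984 CPM (1776 to 2210) and 2350.1 (2259 to 2443), a log2 ratio of -0.24 (-0.41 to -0.08), and 0.05 without shared barcodes. CD8 T cells had 482 CPM (446 to 521) in the shPml library, the lowest of its 5 classes, and 2106 (2019 to 2197) in the shCTRL library, 4.37-fold lower (log2 -2.13, -2.26 to -2.0). B cells were lower too, at 842 CPM (750.2 to 942) against 2129.6 (1986 to 2281), a log2 ratio of -1.34 (-1.53 to -1.15). Regulatory T cells had 1302 and 1517 CPM, with an interval that held 0 (log2 -0.22, -0.51 to 0.06). That value was -1.21 without shared barcodes and 0.42 at a mitochondrial limit of 5%, and 1 cell gave 52 of the 133 shPml UMIs. The shPml B cell gate is the one with the neutrophil transcripts given above, and their part in the B cell value was not tested.

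Tissue digestion can induce immediate-early and heat shock genes, so a list of 10 of them is set beside Klf2. Among CD8 T cells 6 of the 10 were past a 2-fold difference, all lower in the shPml library, where 9.83% of genes were, with a median log2 ratio of -1.74. Fos stood at 87.5 against 822 CPM and Hspa1b, a heat shock gene, at 492 against 2769 CPM. For CD4 T cells 4 of 10 were lower (median -0.86), against 9.47% of genes, in regulatory T cells 2 of 9 (median -0.61), against 11.8%, and in B cells 3 of 10 (median -0.58), against 5.06%. In neutrophils the list leaned the other way, with a median of 0.69 and 1 of 10 ratios below 0. There 2 of 10 were past the fold on the higher side, near the 13.5% of all genes. Klf2 had a log2 ratio of 0.23 (-0.04 to 0.52) in neutrophils. The part of this list in the Klf2 values was not tested.

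Lef1 and Tcf7, the paired factors of the naive and stem-like state, followed 1 order of classes in shCTRL cells: CD4 T, then CD8 T, regulatory T and B cells, with each step separated by its interval. Lef1 stood there at 512, 315, 167 and 54.7 CPM, and Tcf7 at 426, 350.1, 132 and 36.4 CPM. In the shPml library Lef1 was at 186 CPM (127 to 265) in CD4 T and 53.8 (42.1 to 67.8) in CD8 T cells, log2 ratios of -1.46 (-2.03 to -0.94) and -2.55 (-2.94 to -2.18). Tcf7 was at 295 CPM (218 to 389) in CD4 T and 167 (146 to 190.1) in CD8 T cells. Its log2 ratios were smaller than those of Lef1, at -0.53 (-0.99 to -0.11) and -1.07 (-1.32 to -0.83). In regulatory T cells Tcf7 rested on 5 and 41 UMIs (log2 -1.43, -3.12 to -0.09) and the interval for Lef1 held 0 (-0.63, -1.72 to 0.32).

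Both genes also gave UMIs in the shCTRL B cell gate, 21 of Lef1 and 14 of Tcf7, against 0 and 0 in the shPml gate. With the shPml class set to a floor of 3 counts, Lef1 was 6.62-fold lower in the shPml B cells (log2 -2.73, with an upper interval bound of -2.30). One shCTRL cell held 10 of the 21 Lef1 UMIs and one held 5 of the 14 Tcf7 UMIs, and the shCTRL gate is the one with the T cell transcripts given above. The part of those T cell transcripts in the B cell values was not tested.

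Satb1, a chromatin organiser of T cells, had the second largest difference of the 9 in CD8 T cells. It stood there at 93.4 CPM (77.8 to 111) in the shPml and 641 (593 to 692) in the shCTRL library, 6.86-fold lower (log2 -2.78, -3.07 to -2.50). CD4 T cells had 451 CPM (355 to 565) and 728 (678 to 780.5), a log2 ratio of -0.69 (-1.05 to -0.35). Regulatory T cells had 401 and 411 CPM (log2 -0.03, -0.58 to 0.48), and B cells 355 and 492 CPM (log2 -0.47, -0.81 to -0.14).

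Bach2, a repressor that restrains effector genes in T cells and guides B cell fate, was the one gene of the 9 highest in B cells in both libraries. It stood there at 96.3 CPM (67.1 to 134) in the shPml and 107 (76.6 to 145) in the shCTRL library, separated from the class below. CD8 T cells had 34.4 CPM (25.2 to 45.9) and 39.8 (28.5 to 53.9), from 46 and 41 UMIs, with a log2 ratio of -0.21 (-0.85 to 0.43). CD4 T cells had 3 and 43 UMIs (18.0 and 39.9 CPM), so the ratio of log2 -1.14 had an interval from -3.48 to 0.50. Regulatory T cells had 0 and 4 UMIs.

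Igfbp4, a secreted protein that binds insulin-like growth factors and a marker transcript of naive CD4 T cells, was highest in CD4 T cells in both libraries, separated from the next class. They had 192 CPM (132 to 272) in the shPml and 565 (521 to 611) in the shCTRL library, a log2 ratio of -1.55 (-2.11 to -1.04). With a mitochondrial limit of 5%, which left 13 shPml CD4 T cells, that ratio was -0.22. CD8 T cells had 11.2 CPM (6.28 to 18.5), from 15 UMIs in 8 cells, against 165 (141 to 192), 14.7-fold lower (log2 -3.88, -4.75 to -3.12), but -1.52 among cells with Xist UMIs, where Klf2, at -1.86, had the largest difference. The shPml CD8 T level was near that of neutrophils in the same library, 10.1 CPM (4.06 to 20.8), a class outside the T cell lineage. Ccr7, its neighbour on the chromosome, had a log2 ratio of -0.28 in the same cells. B cells had 2 and 26 UMIs, of which 1 shCTRL cell held 11.

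**Figure D2:**
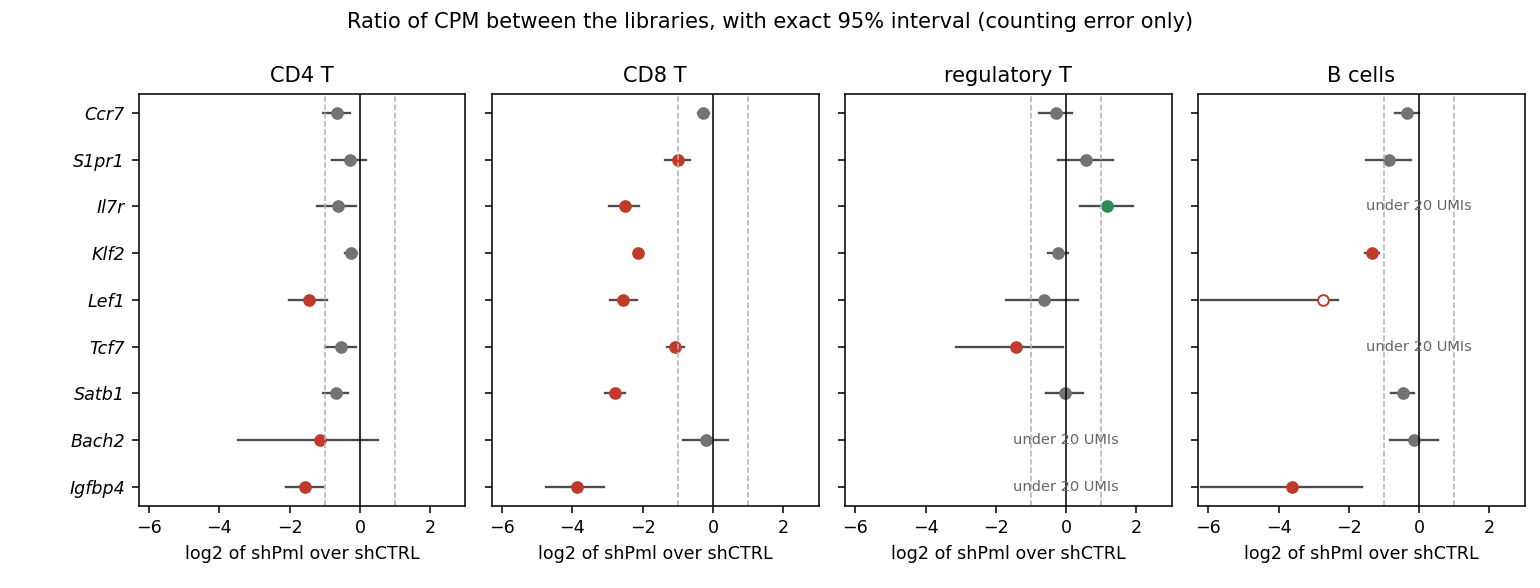
Log2 ratio of CPM, shPml over shCTRL (x axis), for the 9 genes in 4 classes, with exact 95% intervals for counting error cut at -6.2 on the left. Red points are at or below -1, green at or above 1 and grey between; the open circle (Lef1 in B cells, 0 shPml UMIs) is the ratio against the floor of 3 counts. In CD8 T cells 7 of 9 points are red and Ccr7 and Bach2 are grey.

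Counted together, 7 of the 9 genes were at least 2-fold lower in shPml CD8 T cells, all but Ccr7 and Bach2, where 9.83% of 7678 genes with at least 20 summed UMIs were lower by that much. Without shared barcodes 5 were, since S1pr1 (-0.91) and Tcf7 (-0.85) lay near the mark, and at a mitochondrial limit of 5% all 9 were. The share of all genes under these changed settings is not given here, so these counts have no background beside them. At the main setting the median log2 ratio of the 9 genes was -2.13, against 0.13 over the 7678 genes. CD4 T cells had 3 of 9 lower (Lef1, Bach2 and Igfbp4), against 9.47% of genes, and all 9 ratios were below 0 with a median of -0.65 against 0.10. The interval of 7 of these 9 excluded 0. In regulatory T cells 1 of 7 was lower (Tcf7), against 11.8% of genes, and 1 was higher (Il7r), against 8.41%, so these counts are near the background. In B cells 3 of 7 were lower (Klf2, Lef1 and Igfbp4), against 5.06% of genes, and 0 higher, against 5.11%. Neutrophils had 0 of 2 past the fold, against 6.04% lower and 13.5% higher.

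CD4 and CD8 T cells of 1 library were also set against each other. In the shPml library 6 of 9 genes were at least 2-fold higher in CD4 T than in CD8 T cells, where 13.4% of genes were, with Igfbp4 (log2 4.10), Satb1 (2.27) and Il7r (2.17) in front, and 0 were lower, where 13.8% were. In the shCTRL library 1 of 9 was higher, Igfbp4 (log2 1.78), where 4.7% of genes were, and 0 were lower (4.36%). Klf2 showed the difference plainly, at 1984 against 482 CPM in the shPml library and 2350.1 against 2106 in the shCTRL library. The CD8 T gate is the one with the Y-linked UMIs given above, and their part in these differences was not tested.

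CD8 T and regulatory T cells were compared in the same way. Of 8 genes tested among shPml cells, 5 were at least 2-fold lower in CD8 T cells, where 17.8% of genes were: Il7r (log2 -2.63), Satb1 (-2.10), Klf2 (-1.43), S1pr1 (-1.31) and Lef1, at the 2-fold mark (interval -1.93 to 0.06). One was higher, Tcf7 (1.77), where 14.6% were. Among shCTRL cells 0 of 9 were lower (13.3%) and 4 were higher (7.86%). The part of the Y-linked UMIs of the CD8 T gate was not tested here either. Against regulatory T cells, CD4 T cells had 6 of 9 higher in the shCTRL library (9.37% of genes) and 2 of 8, Tcf7 and Igfbp4, in the shPml library (7.13%), with 0 lower in either (14.3 and 12.9%). Against B cells 6 of 9 were higher in CD4 T cells of the shPml library (14.4%) and 4 of 9 in those of the shCTRL library (15.5%), and Bach2 was the 1 lower in each (14.1 and 9.4%). Against neutrophils CD4 T cells had 7 of 8 higher in the shPml library (37.6%) and 7 of 9 in the shCTRL library (40.9%). B cells had 4 of 5 above neutrophils (41.6%) and 6 of 7 (49.1%). None of the tested genes was lower by that much than in neutrophils. Of all genes, 28.2 and 14.9% were in CD4 T cells and 24.9 and 18.8% in B cells of the shPml and shCTRL libraries.

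The number of the 9 genes seen in a cell depends on its depth, so each cell was thinned to 500 UMIs. After that, 11.6% of shPml CD8 T cells (96 of 831, exact binomial interval 9.46 to 13.9%) had UMIs of at least 2 of the 9, against 35.0% of shCTRL cells (93 of 266, 29.2 to 41.0%). Without thinning these were 32.4 and 64.3%, with median depths of 1330 and 3436 UMIs. CD4 T cells had thinned shares of 45.7% (16 of 35, 28.8 to 63.4%) and 67.0% (144 of 215, 60.3 to 73.2%). In neutrophils, which of the 9 had a high level of Klf2 alone, they were 1.65% (3 of 182) and 4.17% (1 of 24), with median depths of 3413 and 3867 UMIs, and B cells had 24.1 and 39.7%.

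**Figure D3:**
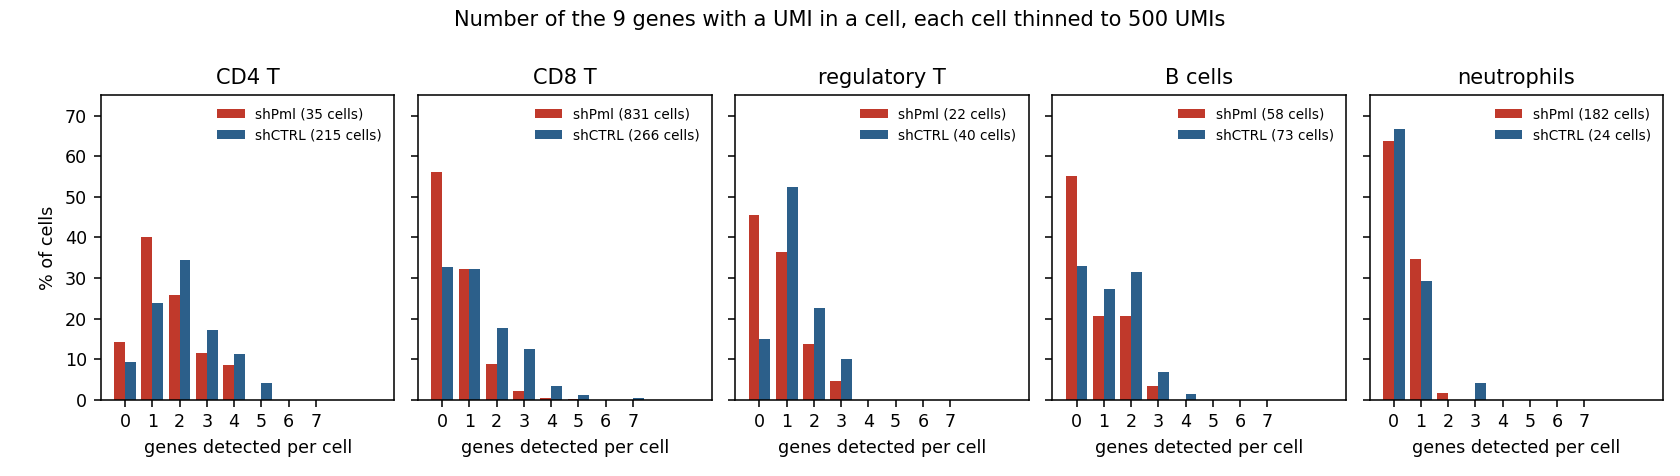
Share of cells (y axis, percent) by the number of the 9 genes with a UMI (x axis) after thinning each cell to 500 UMIs, in 5 classes, shPml in red and shCTRL in blue. In CD8 T cells 56.2% of shPml and 32.7% of shCTRL cells have none.

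Shares of single genes in thinned CD8 T cells followed the direction of the levels, except for S1pr1. It had a UMI in 5.05% of shPml (3.67 to 6.77%) and 4.51% of shCTRL cells (2.35 to 7.75%), at levels of 86.7 and 175 CPM. Ccr7 had a UMI in 16.6% of shPml (14.1 to 19.3%) and 18.8% of shCTRL cells (14.3 to 24.0%), and in 1.10% of shPml neutrophils. Klf2 had one in 18.1% (15.5 to 20.8%) and 38.3% (32.5 to 44.5%). Without thinning the shares were 30.1 and 51.1% for Ccr7 and 30.2 and 66.9% for Klf2. Igfbp4 had one in 0.842% of shPml CD8 T cells (7 of 831, 0.339 to 1.73%) and 1.10% of shPml neutrophils (2 of 182, 0.133 to 3.91%), with overlapping intervals. Its UMIs were not spread evenly over the CD8 T cells, as given below for cells with Xist UMIs.

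Which CD8 T cells were counted moved some of these values, and the cells were split by shared barcodes and by sex-chromosome transcripts. Among cells whose barcode was in 1 library, Klf2 stood at 570.3 CPM in 653 shPml and 2549.7 CPM in 138 shCTRL cells. Among cells with a shared barcode it stood at 338 CPM in 178 shPml and 1014 CPM in 128 shCTRL cells. Lef1 went the same way, at 72.3 and 387 CPM in the first cells and 23.6 and 138 CPM in the second. For Klf2 and Lef1 the shPml library was lower in both splits, and shared shCTRL cells lay between shPml and unshared shCTRL cells. Il7r, Tcf7, Satb1 and Igfbp4 had that order too. For Ccr7, S1pr1 and Bach2 shared shCTRL cells (537, 70.5 and 26.9 CPM) lay below unshared shPml cells (576, 116 and 39.8 CPM). Of 178 shared shPml cells, 168 had more UMIs than the same barcode in the shCTRL library (median ratio 2.75). Median depth was 998.5 UMIs in shared and 5342 in unshared shCTRL cells. Why shared and unshared cells differed in level was not tested.

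The cells with Xist UMIs gave another picture for Ccr7. In the 29 shPml CD8 T cells with Xist and no Y-linked UMI it stood at 226 CPM (161 to 308), against 635 (582 to 691) in the 134 such shCTRL cells, a log2 ratio of -1.49. In the 177 shPml cells with a Y-linked UMI it stood at 660 CPM (572 to 757). Il7r had the opposite order within the shPml library, at 141 CPM (91.4 to 208) in cells with Xist and 16.3 (5.30 to 38.1) in cells with a Y-linked UMI. Igfbp4 gave 11 of its 15 UMIs in the 29 cells (62.1 CPM, against 179 CPM in the shCTRL cells with Xist) and 0 in the 177. With Xist cells alone 6 of the 9 genes were past the fold, now with Ccr7 and without Il7r (log2 -0.96), Bach2 (-0.95) and Tcf7 (-0.87). The share of all genes among Xist cells is not given here, so this count has no background beside it. With a mitochondrial limit of 5%, Ccr7 in CD8 T cells was at -1.63. The Ccr7 value over all CD8 T cells, -0.28, was thus smaller in size than in these 2 subsets, but other subsets differed. In cells with neither Xist nor Y-linked UMIs Ccr7 stood at 497 CPM in 625 shPml and 481 CPM in 117 shCTRL cells. In cells with a Y-linked UMI it stood at 660 CPM in the shPml library and 272 (88.5 to 636) in 15 shCTRL cells. Median depth was 3837 UMIs in the 29 shPml cells with Xist and 1564 in the 177. The part of the sex-chromosome split in these and the other ratios was not tested.

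**Figure D4:**
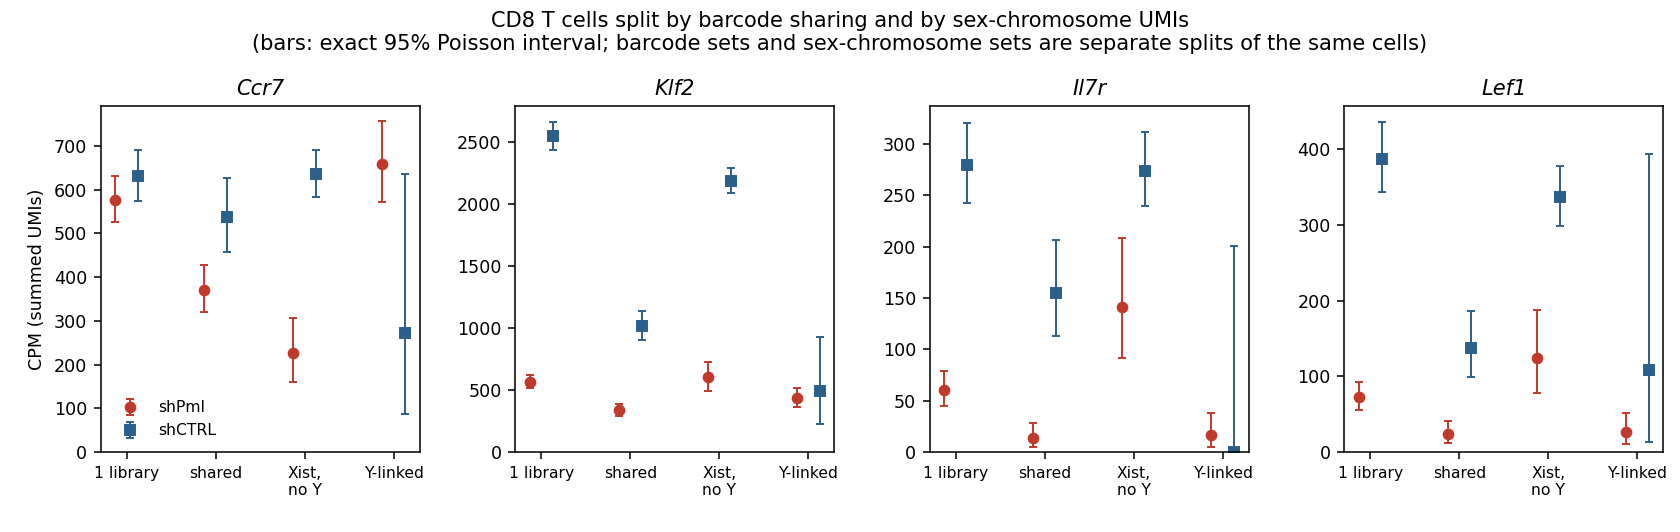
CPM (y axis, starting at 0) of Ccr7, Klf2, Il7r and Lef1 in CD8 T cells split by barcode (in 1 library or shared) and, separately, by sex-chromosome UMIs (Xist without Y-linked, or Y-linked); shPml red circles, shCTRL blue squares, bars exact 95% Poisson intervals. Among shPml cells Ccr7 is at 226 CPM in those with Xist and 660 in those with a Y-linked UMI, while Il7r is at 141 and 16.3.

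Within shPml CD8 T cells most pairs of the 9 genes were found in the same cells more often than independent spread would give. Of 36 pairs, 30 had at least 2 cells expected, and 29 of these had more cells than expected, with a median of 1.65 times. Cells differ in depth, which raises this ratio for any pair; thinned to 500 UMIs, 10 of 15 pairs were above 1, with a median of 1.31. Of those 30 pairs, Il7r had the highest ratios: 9 cells held Il7r and Lef1 where 2.74 were expected, and 13 held Il7r and Satb1 where 4.19 were. With Klf2 it shared 27 cells where 12.1 were expected, and 10 against 3.43 after thinning.

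Ccr7 and Klf2 were the 1 pair of the 30 below 1, with 58 cells against 75.5 expected (0.768). After thinning there were 20 against 24.9 (0.803). Among cells of at least 1000 UMIs there were 52 against 68.9 without thinning and 19 against 17.3 with it. At a mitochondrial limit of 5% there were 13 against 12.7 without thinning and 3 against 3.56 with it. In shCTRL CD8 T cells the pair was in 110 cells against 91.0 expected, and in 18 against 19.2 after thinning. In counts this sparse these ratios are a description and no finding.

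**Figure D5:**
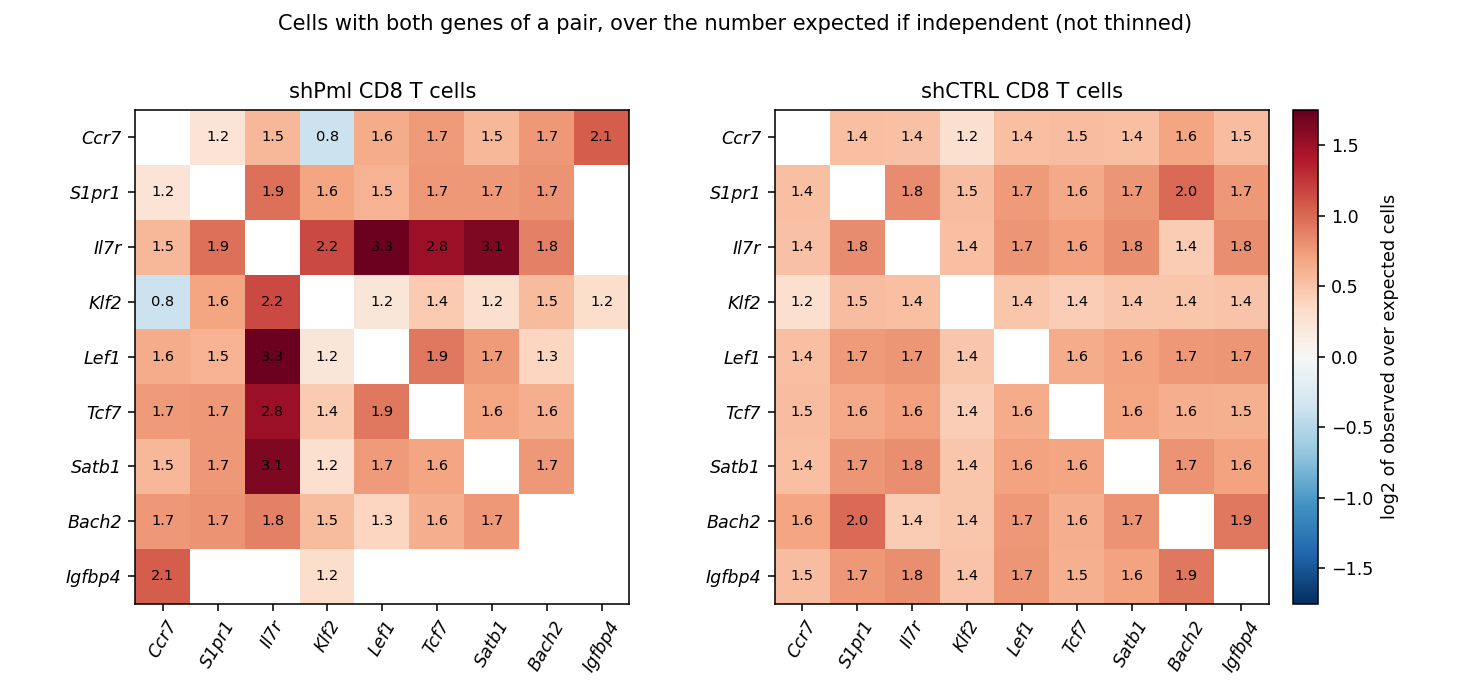
Observed over expected number of CD8 T cells with both genes of a pair (numbers in the squares, colour on a log2 scale), without thinning; blank squares are pairs with fewer than 2 cells expected. In the shPml library the Ccr7 and Klf2 square is the 1 below 1 (0.768), and in the shCTRL library all 36 are above 1.

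The shPml CD8 T cells with a UMI of only 1 of these 2 genes differed in other genes; this split was chosen after values were seen. There were 192 cells with Ccr7 and no Klf2, and 193 with Klf2 and no Ccr7, with median depths of 1505 and 1346 UMIs. Of 24 tested genes of the wider naive T cell list described below, 8 were at least 2-fold higher in the Klf2 cells and 1, Dapl1, in the Ccr7 cells. Dapl1, a transcript of resting T cells, stood at 390.4 CPM in the Ccr7 cells and 65.9 in the Klf2 cells, but at 102 and 312 CPM in such cells of the shCTRL library. Ccl5, an effector chemokine, stood at 888 and 7556 CPM, and at 938 and 1307 CPM in such cells of the shCTRL library. Of 21 tested genes of the effector list described below, 6 were at least 2-fold higher in the Klf2 cells and 2 in the Ccr7 cells. The shares of all genes were 8.35 and 8.12%. In the shCTRL library the effector list leaned the other way, with 2 of 14 higher in the Klf2 cells and 7 in the Ccr7 cells (15 and 18.8% of genes). S1pr1 stood at 47.7 and 122 CPM (log2 -1.36, -2.30 to -0.49) and Il7r at 23.8 and 81.6 CPM. Lef1 had an interval that held 0, at 59.6 and 59.6 CPM (-0.98 to 0.98). Of 6 tested genes of the 9, 0 were at least 2-fold higher in the Ccr7 cells and 2 in the Klf2 cells, against 8.12 and 8.35% of 4002 genes. Of the 10 immediate-early and heat shock genes 8 were higher in the Klf2 cells, with Hspa1b at 14.9 and 706 CPM and Jun at 59.6 and 443 CPM, and their part in the split was not tested. The shCTRL library had 26 Ccr7 cells without Klf2, of which 24 had a shared barcode, and 0 of 6 genes of the 9 were higher in them and 2 in the Klf2 cells (18.8 and 15% of genes).

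In the wider naive T cell programme, a list of 28 other genes, more genes were past the fold on the lower side than among all genes in CD4 and CD8 T cells of the shPml library, though most members were not past it. CD8 T cells had 13 of 28 at least 2-fold lower, where 9.83% of genes were, and 0 higher, with a median log2 ratio of -0.83. Btg2, an antiproliferative gene, stood at 185 against 711 CPM and Pik3ip1, an inhibitor of PI3 kinase, at 11.2 against 114 CPM, whereas Myb, a factor of T cell progenitors, was at 94.9 against 51.4 CPM (log2 0.89). Among CD4 T cells 9 of 27 were lower, against 9.47% of genes, and 0 higher (median -0.77), with the cytoskeletal gene Actn1 at 84.2 against 253 CPM. Bcl2, a survival gene, was at 355 against 223 CPM in CD4 T cells (log2 0.67). In regulatory T cells 3 of 21 were lower (median 0.02), near the 11.8% of all genes, and in B cells 4 of 22 (median -0.50), against 5.06%.

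Genes of effector and tissue-resident T cells, a list of 30, leaned the other way. Of 26 tested in CD8 T cells, 13 were at least 2-fold higher in the shPml library, where 12% of genes were, and 3 were lower, near the 9.83% of all genes, with a median of 0.998. Ccl5 stood at 4990 against 919 CPM and Gzmb, the cytotoxic protease granzyme B, at 845 against 175 CPM. The 3 lower ones were Nr4a1 and Cd69, both induced by antigen receptor signals, and the T-box factor Eomes. Of 20 tested in CD4 T cells, 8 were higher, where 10.7% of genes were, and 2 were lower, near the 9.47% of all genes (median 0.86). Il2ra, the interleukin 2 receptor alpha chain, stood at 222 against 40.8 CPM in CD4 T cells. Of 19 tested in regulatory T cells, 5 were higher, against 8.41% of genes, and 2 lower, against 11.8% (median 0.26).

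Ligands and signal partners of the 9 genes gave small counts past the fold in T cells, given here beside the shares of all genes. The CCR7 ligands Ccl19 and Ccl21a and the cytokine Il7 gave 0 UMIs in the 5 classes of both libraries. Of 26 such genes, 15 were tested in CD8 T cells. Of these 1 was at least 2-fold lower, near the 9.83% of all genes, and 0 higher, against 12% (median -0.32). The lower one in CD8 T cells was Igf1r, with 10 and 16 UMIs, named after its value was seen. Il2rg, the chain that pairs with the interleukin 7 receptor, stood at 227 against 306 CPM there (log2 -0.43, -0.66 to -0.20), and Tle4, a corepressor of TCF factors, at 38.1 against 74.7 CPM (log2 -0.97). For CD4 T cells 0 of 13 were lower, against 9.47% of genes, and 0 higher, against 10.7%. Of 11 tested in regulatory T cells, 2 were higher (8.41% of genes) and 1 lower (11.8%). Crlf2, which pairs with the interleukin 7 receptor chain to bind TSLP, was at 215 against 99.4 CPM there (log2 1.12, 0.26 to 1.95).

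The genes most like the 9 were sought over the 10 points of 5 classes in 2 libraries, by Pearson's r of log2(CPM + 10) with the mean of the 9 standardised genes. Among 5471 genes compared, the highest were Mndal (0.974), Arhgap45 (0.967), Il6st (0.960), Rassf5 (0.957) and Smg9 (0.956), followed by Cbx7, Slc12a7, Ndrg3, Kif21b and Fam78a (0.942 to 0.940). Mndal stood at 79.2 CPM in shPml and 278 in shCTRL CD8 T cells. The points share libraries and depth, so r is a description only. Of single genes, Ccr7 ran most closely with the elongation factors Eef1a1 (0.995) and Eef2 (0.994), Lef1 with Ranbp10 (0.978) and Dgka (0.962), and Satb1 with BC004004 (0.981) and the heat shock gene Hspa1b (0.981). S1pr1 ran with Snrnp70 and Tulp4, Il7r with Tmem87a and Rinl, Klf2 with H2-Q10 and Rnf213, Tcf7 with Coa5 and Themis, Bach2 with D10Wsu102e and Dmac2, and Igfbp4 with Gramd1a and Tdrp. Among the 9, the pairs Lef1 with Tcf7 (0.933) and Ccr7 with S1pr1 (0.932) had the highest r, and Ccr7 with Klf2 had 0.118.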

How the data were processed

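The authors deposited 1 matrix of whole-number UMI counts per library, without normalization. Cell Ranger 4.0.0, R 4.3.3, Seurat 4.4.0 and the mm10 build are named in the submitters' processing notes, which do not name the gene annotation. No barcode had fewer than 500 UMIs. The 9 genes, the gates and the gene lists were chosen with earlier results of these data known. Counts were summed per class and library with Python 3.11.15, numpy 2.4.6 and scipy 1.17.1, and scaled to CPM. Ratios had exact conditional Poisson intervals and shares exact Clopper-Pearson intervals (95%), for counting error only. A gene was counted as past the fold at a log2 ratio of at least 1 in size with at least 20 summed UMIs. A class at 0 was set to a floor of 3 counts. Cells passing 2 gates counted in both (6 shPml, 11 shCTRL). Doublets were kept; Scrublet (scanpy 1.11.5) marked 5 of 1754 and 6 of 856 cells, which were left out as an alternative. In the shPml library that is 0.285%. Named genes were all 9, up to 4 per list and direction with the interval bound farthest from 0, from which examples are given, the 10 most like their mean and the 2 most like each. Genes between the Ccr7 and Klf2 cells were named after their values were seen. The intervals and the fold rule were tested on simulated Poisson counts. These lack the clumping of UMIs in single cells, so they check the calculation and not whether counting error covers the real spread. Alternatives numbered 15, with 5 more chosen after seeing the data. One gene of the naive T cell list is not reported here by name.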

Additional observations from a re-analysis of the deposited data

Results flagged for a closer look

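Il7r was singled out because its ratio between the libraries had opposite signs in T cell classes. The log2 ratio of shPml over shCTRL was 1.16 in regulatory T cells, -0.64 in CD4 T cells and -2.51 in CD8 T cells. Each interval for counting error excluded 0, but with 1 library per group the difference between classes was not tested. Over all 12 alternatives the regulatory T cell value stayed above 0, from 0.84 to 1.67, and the CD8 T cell value below 0, from -2.65 to -0.96. The CD4 T cell value ranged from -1.11 to 1.12.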

How the results depend on the processing

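No paired analysis was possible because there was only 1 library of each kind. Of the log2 ratios of single genes under 12 alternatives, 96 of 108 in CD4 T, 86 of 108 in CD8 T and 73 of 84 in regulatory T cells stayed within the counting interval of the reported value. One value past the fold reversed: Bach2 in CD4 T cells was 0.31 at a mitochondrial limit of 5%, from 2 and 24 UMIs. At that limit Il7r in CD4 T cells was 1.12, so its direction there depended on 13 shPml cells. The count of genes lower in CD8 T cells was 5 to 9 over the alternatives. In CD4 T cells it was 7 at a log2 ratio of 0.5, and in regulatory T cells 3 without shared barcodes, 2 with Xist cells alone and 2 at a log2 ratio of 0.5. The share of CD8 T cells with at least 2 genes, shPml minus shCTRL, was -23.4 percentage points. It was -31.0 at a mitochondrial limit of 5%, -33.5 without a limit, -42.4 without shared barcodes, -30.8 in cells of at least 1000 UMIs and -31.9 without thinning; in neutrophils it was -2.52, and -23.2 without thinning. Without the minimum of 20 UMIs the share of all genes lower in CD8 T cells was 14.5%. For the other alternatives the share of all genes is not given here, so those counts of genes have no background beside them. The causes were not tested. The regulatory T values rested on 22 and 40 cells, with wide counting intervals.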

Other observations

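The barcodes over the limit of 10% mitochondrial UMIs were not part of the comparisons, and the same gates found 96 CD8 T cells in the shPml and 186 in the shCTRL library among them, with median depths of 692 and 1014.5 UMIs. Ccr7 stood at 788 and 643 CPM in these cells (log2 0.29, -0.16 to 0.73). Klf2 stood at 676 and 2893 CPM (log2 -2.10, -2.53 to -1.70), Satb1 at 413 and 1219.8 CPM (log2 -1.56) and Lef1 at 163 and 427 CPM (log2 -1.39). S1pr1, at 275 and 238 CPM, had an interval that held 0 (log2 0.21, -0.58 to 0.95). In the 35 and 123 CD4 T cells over the limit Klf2 stood at 569 and 2415 CPM (log2 -2.09, -2.75 to -1.49), whereas below the limit it was at 1984 and 2350.1 CPM.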
